A study of Drosophila melanogaster with 2 samples.

Results

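The 8 Hox genes of Drosophila melanogaster were read in the binding profile of the CG8765 protein: lab, pb, Dfd, Scr and Antp of the Antennapedia complex, and Ubx, abd-A and Abd-B of the bithorax complex. They were taken by name from 13968 protein-coding genes on the chromosome arms, and each was given a window of its annotated gene body with 5 kb on either side. The 8 windows cover 417.5 kb of arm 3R. CG8765 is a gene known by its annotation number, and its protein was expressed as a fusion to enhanced green fluorescent protein (eGFP) in 1 transgenic strain. Chromatin of whole embryos aged 0 to 8 h was sheared by sonication, an anti-GFP antibody pulled down the fusion protein, and the DNA bound to it was sequenced (ChIP-seq). The labels give 1 group of 2 biological replicates, and no other genotype, age or treatment. No comparison of conditions was therefore possible, and no p-value is given. Whole embryos mix all tissues over 8 h of development, so a site occupied weakly in many cells and one occupied strongly in few cannot be told apart.

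Hox genes encode homeodomain transcription factors that give the segments of the embryo their identity along the head-to-tail axis. In the fly they lie in a pair of complexes on the right arm of chromosome 3, in roughly the order of the segments they pattern. Their transcription begins in the early embryo under gap and pair-rule factors and is later held on or off by the trithorax and Polycomb groups. Much of their control lies in long introns and in the DNA between the genes, as in the large Ubx intron, and not in the promoter alone.

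The authors deposited 8 peak lists on genome build dm6. The 4 lists thresholded by the irreproducible discovery rate, a measure of how repeatably a peak ranks, held 2132 peaks on the arms (the conservative list of the series), 2825 (a less strict list of the series), 1875 (replicate 1) and 1671 (replicate 2). The 4 ranked lists held between 106449 and 142719 peaks, most of them far below any threshold. Each peak carries the authors' signal and a score of up to 1000, which was never below 830 in a thresholded list. At the Hox sites a peak had the same signal in every list of the series that held it, and likewise within each replicate's lists. The scale differed between the series and each replicate. Replicates are therefore set side by side by rank, given as the top percent of the list in which a peak stands. Stretches of 10 kb or more with no ranked peak at all took up 20.02% of the arms in the main ranked list of the series, 21.2% in replicate 1 and 16.0% in replicate 2. In the Hox windows they took up 13.3%, 17.3% and 7.26%. The lists do not tell a stretch without signal from one in which no peak was called, so a missing peak inside such a stretch gives no level.

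In the conservative list 9 peaks fell in the Hox windows. They belonged to 5 of 8 genes: pb, Dfd, Antp, Ubx and Abd-B. Among all protein-coding genes 29.1% had such a peak in their window, and 38.9% among the 1985 genes of 10 kb or more, a size that every Hox gene exceeds. The less strict list gave the same 5 genes, beside 33.9% of all genes and 47.1% of those of 10 kb or more. No peak of any thresholded list lay in the windows of lab, Scr or abd-A. The 9 peaks correspond to 2.16 per 100 kb (exact 95% Poisson interval 0.986 to 4.09, for counting error only), beside 1.55 per 100 kb over all arms. In the conservative list the Hox windows together were thus within counting error of the genome as a whole. The less strict list held 3.59 per 100 kb (2.01 to 5.93), beside 2.05 over all arms, which lies just above the lower bound. Replicate 1 held 2.63 (1.32 to 4.71) beside 1.36, and replicate 2 held 1.44 (0.527 to 3.13) beside 1.21.

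Sequence around the summit is given for the conservative peaks, since these are the positions on which the account of the Hox genes turns. Each is 101 bases centred on the summit, read 5′ to 3′ on the plus strand from the RefSeq copy of the dm6 build. Capitals mark any match, on either strand, to GAGAG (bound by GAGA factor), GCCAT (the core of the Pho site), TAATTA (a homeodomain site), TATAAA (the TATA box), CGATA (bound by BEAF-32) or CACGTG (an E-box). In the Antennapedia complex the sites were upstream of pb and of Dfd and in introns of Antp; the remaining site, downstream of the pb start, lies in an untranslated exon and is not printed.
pb upstream, chr3R:6742199-6742299: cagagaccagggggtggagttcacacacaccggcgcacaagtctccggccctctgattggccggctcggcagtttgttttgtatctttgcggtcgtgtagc
Dfd upstream, chr3R:6791514-6791614: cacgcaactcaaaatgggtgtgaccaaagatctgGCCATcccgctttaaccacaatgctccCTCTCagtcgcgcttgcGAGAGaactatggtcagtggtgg
Antp 3′ intron, chr3R:6914470-6914570: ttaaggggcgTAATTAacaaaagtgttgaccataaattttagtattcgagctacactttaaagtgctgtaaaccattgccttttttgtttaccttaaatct
Antp middle intron, chr3R:6949447-6949547: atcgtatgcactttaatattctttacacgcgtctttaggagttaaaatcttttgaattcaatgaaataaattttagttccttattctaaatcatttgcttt
In the bithorax complex all 4 sites lay in introns.
Ubx 3′ intron, chr3R:16673361-16673461: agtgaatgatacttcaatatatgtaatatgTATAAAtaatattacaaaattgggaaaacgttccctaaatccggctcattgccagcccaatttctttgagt
Ubx 5′ intron, chr3R:16714984-16715084: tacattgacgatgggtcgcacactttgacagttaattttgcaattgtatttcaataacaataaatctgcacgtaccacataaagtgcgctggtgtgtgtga
Abd-B 3′ intron, chr3R:16941449-16941549: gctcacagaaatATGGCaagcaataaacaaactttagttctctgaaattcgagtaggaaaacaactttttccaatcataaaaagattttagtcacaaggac
Abd-B 5′ intron, chr3R:16970067-16970167: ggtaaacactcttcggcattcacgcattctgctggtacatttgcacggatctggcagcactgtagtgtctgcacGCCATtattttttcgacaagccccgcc
The pb window held none of the searched strings in these 101 bases, the Dfd window held GCCAT and 2 matches to GAGAG, and the Antp 3′ window held TAATTA.

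The strongest Hox peak of the series lists and of replicate 2 was at pb (FBgn0051481, minus strand, chr3R:6707800-6742063), which acts in the adult mouthparts. Its summit lay 186 bp upstream of the single annotated pb transcription start site (TSS), at chr3R:6742122-6742338, with a signal of 330, rank 140 of 2132 in the conservative list. In the replicates' own ranked lists it stood in the top 0.302% of replicate 1 and the top 0.0838% of replicate 2, with a score of 1000 in both. A second pb peak, at chr3R:6741645-6741798, had its summit 336 bp downstream of the TSS in a 5′ untranslated exon, with a signal of 152 and rank 593. That peak stood in the top 0.650% and 0.394% of the replicates' lists, and both pb peaks were in all 4 thresholded lists. The promoter of pb was the only Hox promoter with a thresholded peak in both replicates. One more site, in the pb intron at chr3R:6708864-6709187, entered only the less strict list, with a signal of 50.9. It ranked in the top 1.93% in replicate 2 and the top 12.7% in replicate 1.

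Dfd (FBgn0000439, plus strand, chr3R:6791836-6802428), which patterns the mandibular and maxillary segments of the head, had 1 conservative peak. Its summit lay 272 bp upstream of the Dfd TSS, at chr3R:6791402-6791725, with a signal of 70.8 and rank 1773 of 2132. The peak was weak within the conservative list but stood at nearly the same place in both replicates, in the top 1.63% of replicate 1 and the top 1.86% of replicate 2. Its score was 955 in replicate 1 and 825 in replicate 2, just under the lowest score of 830 in a thresholded list, and it was therefore missing from the replicate 2 list. Stretches of 10 kb or more without a ranked peak took up 18.5% of the Dfd window in the main ranked list and in replicate 1, and none of it in replicate 2. Within Dfd the strongest peak below the threshold was in an intron, with a signal of 64.3 and a score of 667.

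With these, 2 of 8 Hox genes had a conservative summit within 500 bp of a TSS, beside 10.5% of all protein-coding genes and 13.5% of those of 10 kb or more. A gene counted once however many TSSs it had. In the less strict list the same 2 genes had a TSS peak (12.3% of all genes and 16.5% of those of 10 kb or more). In replicate 1 it was again pb and Dfd, beside 8.35% of all genes, and in replicate 2 pb alone, beside 8.78%.

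Antp (FBgn0260642, minus strand, chr3R:6896253-6999228), which specifies the second thoracic segment, has the longest body of the 8 genes, at 103.0 kb. It held 2 conservative peaks, both in introns. The stronger, at chr3R:6914358-6914681, had a signal of 196 and rank 390, and lay 18320 bp downstream of the nearest Antp TSS. It stood in the top 0.291% of replicate 1, where it was the strongest Hox peak, just above the pb promoter, and the top 0.681% of replicate 2. The other, at chr3R:6949335-6949658, had a signal of 120 and rank 870, and stood in the top 0.612% and 1.29%. Both were in all 4 thresholded lists, so pb and Antp held all 4 Hox sites with that property. How common that property is among all peaks was not computed. Both summits also lie within the annotated gene CG46458, and these peaks cannot be assigned to one of the 2 genes.

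A further 4 intronic Antp sites passed a threshold outside the conservative list. The site at summit 6936386 had a signal of 81.8 and was thresholded in the less strict list and in both replicates, with scores of 860 and 951. In the ranked list that holds the conservative peaks its score was 71, so the authors' score and signal did not order Hox peaks alike. The site at summit 6984027 was thresholded in replicate 2, where it stood in the top 1.07%, but in replicate 1 it stood in the top 41.3%. The site at 6920153 was the reverse, in the top 1.01% of replicate 1 and the top 12.002% of replicate 2. The last, at 6912567, passed only in the less strict list, with a signal of 67.7. Of these 4 sites, only that at 6984027 lies outside CG46458. None of the 6 Antp sites was within 500 bp of an Antp TSS. Stretches of 10 kb or more without a ranked peak took up 25.05% of the Antp window in the main ranked list, 26.1% in replicate 1 and 10.5% in replicate 2, where a 14.1 kb one lay over the 3′ end. The 5′ TSS of Antp lay inside an 18.8 kb stretch without a ranked peak in the main ranked list and a 20.2 kb stretch in replicate 1, whereas replicate 2 had a ranked peak 306 bp upstream of it, in the top 6.85%.

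lab (FBgn0002522, minus strand, chr3R:6661427-6678590), which acts in the head and the midgut, had no thresholded peak, and 2 ranked peaks of the main list with scores over 700. The strongest was in an intron at summit 6664597, with a signal of 66.1, above those of some thresholded Hox peaks, and a score of 732. In the other ranked list of the series this intron peak scored 809, close to the lowest thresholded score of 830. The next lay 121 bp upstream of the 5′ TSS, with a signal of 58.9 and a score of 710, but its score in the other ranked list of the series was 82. In the replicates' lists the best peak at that TSS stood in the top 4.06% and 5.09%, with scores of 169 and 44. In the replicates' own lists the highest score of any lab peak was 276 in replicate 1 and 440 in replicate 2, far below 830.

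Scr (FBgn0003339, minus strand, chr3R:6823120-6849981), which patterns the labial and first thoracic segments, had no thresholded peak, and its strongest peak had a lower signal than that of lab in each of the 4 ranked lists. Its strongest ranked peak had a signal of 49.1 and a score of 432 and lay in the downstream flank, nearest to a gene for a lysine tRNA. The best peak at the 5′ TSS stood in the top 19.4% of replicate 1, and replicate 2 had none within 500 bp. No 10 kb stretch without a ranked peak touched the windows of lab or Scr in any list. The longest gap between neighbouring ranked peaks there was 5.06 kb at lab and 5.36 kb at Scr, both in replicate 1.

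**Figure D1:**
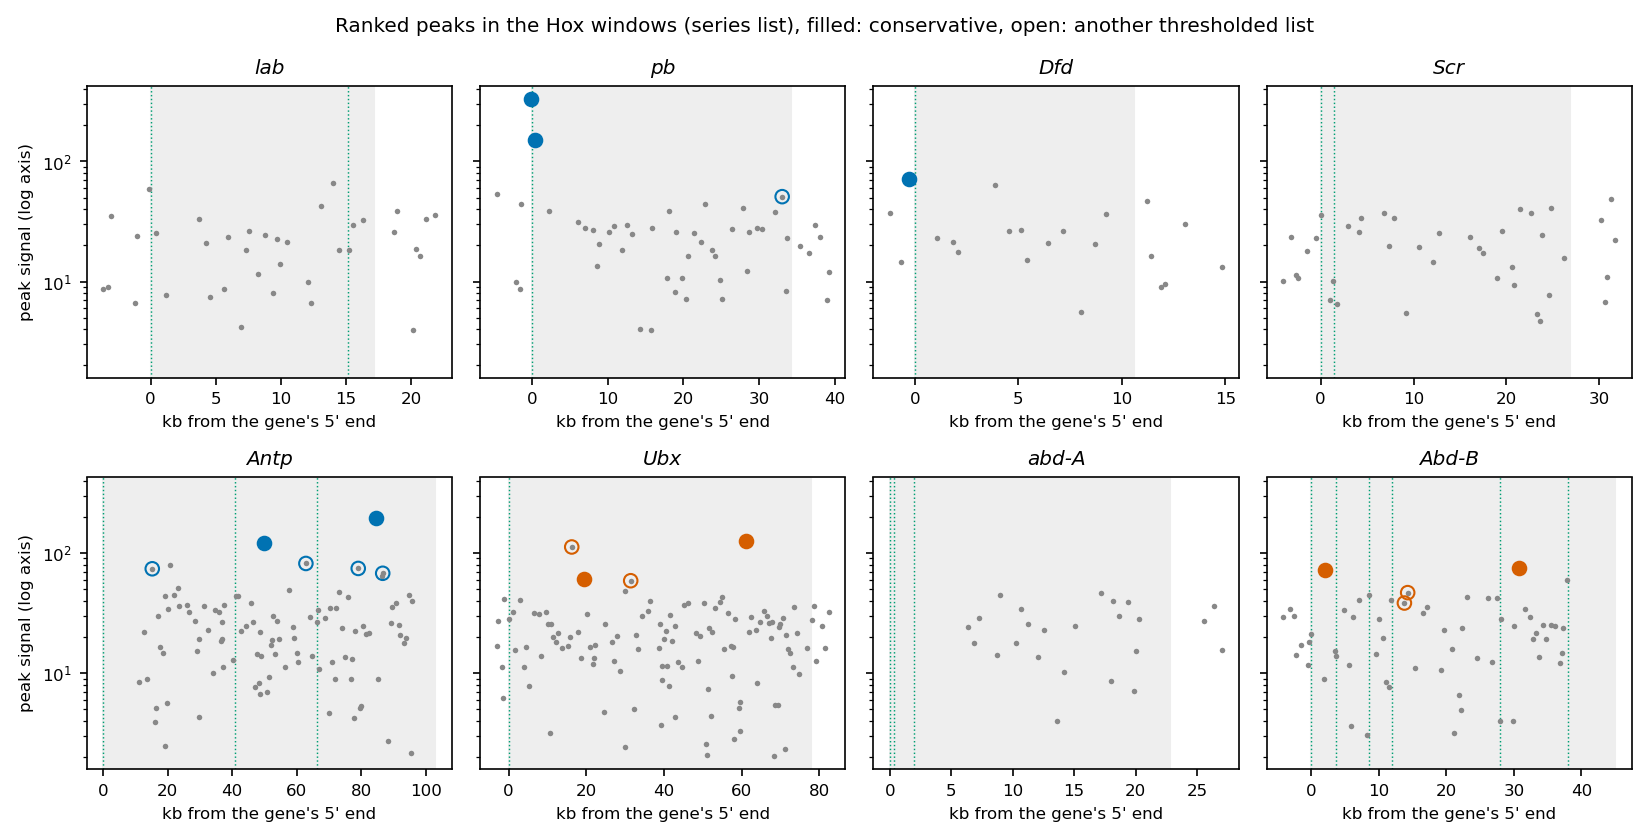
Signal of every ranked peak of the series (vertical axis, authors' signal) against distance in kb from the 5′ end of each Hox gene (horizontal axis), with 1 panel per gene. Filled points are conservative peaks, open points passed another threshold only, dotted lines are annotated TSSs and the grey band is the gene body. The pb promoter reaches 330, and the lab, Scr and abd-A panels hold no filled or open point.

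Ubx (FBgn0003944, minus strand, chr3R:16656623-16734426), which sets the identity of the third thoracic and first abdominal segments, held 2 conservative peaks in introns. The one nearer the 3′ end, at chr3R:16673249-16673572, had a signal of 125 and rank 805 and lay 61015 bp into the gene from its single TSS. It stood in the top 0.383% of replicate 1, where its score was 1000, and the top 5.30% of replicate 2, where its score was 42. The other, at chr3R:16714872-16715195, lay 19392 bp into the gene, with a signal of 60.5 and rank 1985. Replicate 1 had no ranked peak at that site, which fell in a 15.3 kb stretch without any (16702129 to 16717424), and in replicate 2 it stood in the top 3.18%. The peak nearer the 3′ end thus stood higher in replicate 1, while the other had a standing in replicate 2 only. Its missing rank in replicate 1 gives no level, so the replicates cannot be compared there.

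A pair of other Ubx intron sites passed only outside the conservative list. The site at summit 16718192 had a signal of 112 and stood in the top 0.535% of replicate 1 but the top 10.7% of replicate 2. The site at 16703015 had a signal of 58.7 and lay in the same replicate 1 stretch, and it stood in the top 2.43% of replicate 2. At the Ubx TSS itself the best peak stood in the top 13.8% of replicate 1 and the top 72.8% of replicate 2, with scores of 94 and 13.

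Abd-B (FBgn0000015, minus strand, chr3R:16927212-16972236), which specifies the posterior abdomen, held 2 conservative peaks of similar signal. One, at chr3R:16969955-16970278, had a signal of 72.7 and rank 1731 and lay 1543 bp upstream of the nearest Abd-B TSS, inside an intron of the longer transcripts. It stood in the top 2.19% of replicate 1 and the top 1.76% of replicate 2, the closest pair of ranks among the bithorax sites, and its score was 489 in each. The other, at chr3R:16941337-16941660, had a signal of 74.5, rank 1685 and a score of 832, close to the lowest of 830. It was in no thresholded list but the conservative one, and stood in the top 1.40% and 5.04% of the replicates. The conservative list is therefore not a subset of the less strict one at this gene. A further pair of intron sites, at summits 16957953 and 16958441, passed only in replicate 1, and in replicate 2 they stood in the top 31.8% and 16.1%.

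None of the 6 Abd-B TSSs had a thresholded peak. The nearest to it was a ranked peak 142 bp upstream of the TSS at 16934242, with a signal of 60.1 and a score of 590. This peak borders a 20.1 kb stretch without ranked peaks that covers the 3′ flank and the 3′ part of the gene, 22.1% of the window, and that TSS itself.

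abd-A (FBgn0000014, minus strand, chr3R:16807214-16830049), which acts in the abdominal segments between the domains of Ubx and Abd-B, had no thresholded peak. Its strongest ranked peak in the main list had a signal of 46.6 and a score of 166, and its highest score there was 268, or 537 in the other ranked list of the series. Its best peak stood in the top 3.07% of replicate 1, above the best of lab and of Scr, and in the top 6.74% of replicate 2, below the best of every other Hox gene. All 3 abd-A TSSs were without a ranked peak within 500 bp in each of the 4 ranked lists. They lay inside a stretch without any ranked peak, 14.9 kb long in the main ranked list and in replicate 1 and 12.2 kb long in replicate 2. In the main list only 0.510% of the distances between neighbouring peaks were as long. The stretch held no unknown bases, and 18.3% of it was masked as repeats, beside 19.5% of arm 3R. Over the promoters of abd-A the ranked lists thus hold no value at all, so the absence of a thresholded peak there does not give a level.

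Between the complexes the numbers of conservative peaks were alike for their length. The Antennapedia complex windows held 5 peaks in 241.9 kb, or 2.07 per 100 kb (exact Poisson interval 0.671 to 4.82). The bithorax windows held 4 in 175.7 kb, or 2.28 per 100 kb (0.620 to 5.83). The intervals overlapped almost wholly, so no difference in density was detectable with so few peaks. Their places differed in the count: 3 of the 5 Antennapedia peaks were at a TSS, and 0 of the 4 bithorax peaks, and all others were intronic. These 3 were the pair at the single pb TSS and the Dfd peak, so they stand for the promoters of pb and Dfd only. In the bithorax complex every abd-A TSS lay in a stretch without ranked peaks. Over the whole conservative list 53.9% of peaks were at a TSS and 28.1% in introns.

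The median conservative Hox peak stood in the top 40.8% of the list, at 27.8% for the 5 Antennapedia and 80.1% for the 4 bithorax peaks. In the less strict list, with 10 and 5 peaks, the medians were 62.8% and 69.7%, and over all peaks of the main ranked list they were 45.1% and 49.3%. The gap between the complexes was thus wide in the conservative list and small in the other lists of the series. The ranked lists among these hold mostly weak peaks, unlike the thresholded ones. In the thresholded list of replicate 1 the medians were 35.9% for the Antennapedia and 53.5% for the bithorax peaks. In replicate 1 the thresholded list held 7 Antennapedia peaks and 4 bithorax peaks, and 5 of 8 genes had one, beside 24.9% of all genes and 36.7% of those of 10 kb or more. In replicate 2 it held 6 Antennapedia peaks and 0 bithorax peaks, so that 2 of 8 genes, pb and Antp, had one beside 24.7% of all genes and 35.3% of those of 10 kb or more. A count of 0 in the bithorax windows allows up to 2.10 peaks per 100 kb by the same interval, above the 1.21 per 100 kb of all arms in replicate 2. Within the windows the absence of bithorax peaks from that list was therefore within counting error of the genome's density. Over the whole span of the complex, 325.6 kb, that list also held 0 peaks. No interval was computed for the span, so this reading holds for the windows only. Stretches without ranked peaks took up 10.5% of the bithorax windows in replicate 2 and 22.2% in replicate 1.

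**Figure D2:**
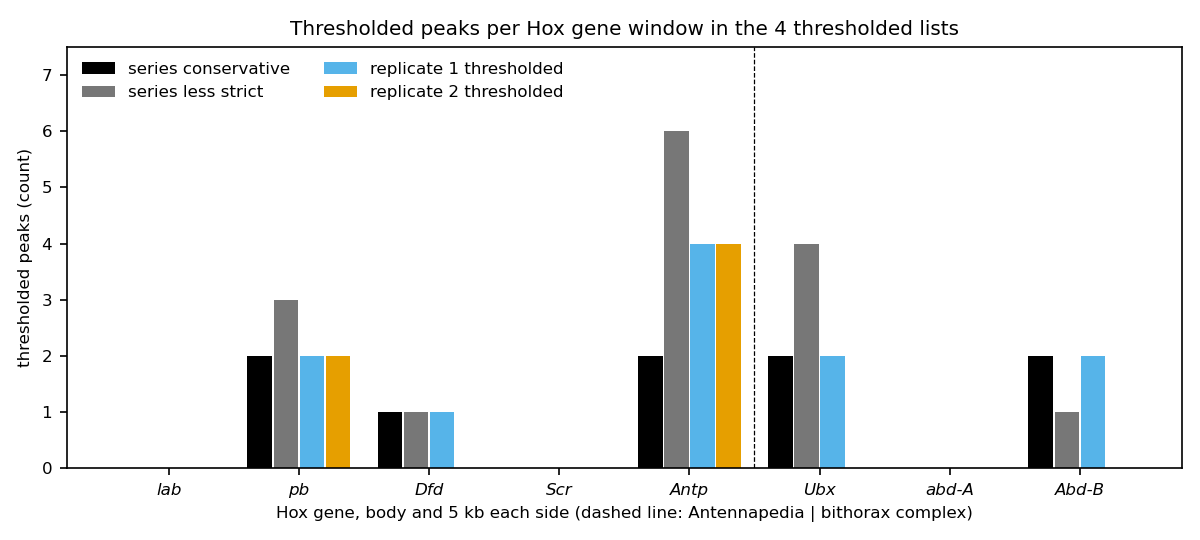
Number of thresholded peaks (vertical axis) in the window of each Hox gene (horizontal axis), with 1 bar for each of the 4 thresholded lists. pb and Antp have bars in all 4 lists, Dfd and Ubx and Abd-B have none in replicate 2, and lab, Scr and abd-A have none in any.

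Across the 4 thresholded lists the Hox peaks merged into 18 sites, 10 in the Antennapedia and 8 in the bithorax complex. Of these, 15 were intronic and 3 were at a TSS. Of the Antennapedia sites 4 were in all 4 lists, and of the bithorax sites none was. The latter follows from the 0 bithorax peaks in the replicate 2 list. The share of all peaks on the arms found in all 4 lists was not computed, so these counts are descriptions only. All 10 Antennapedia sites were present in both replicates' ranked lists, and 4 of them ranked higher in replicate 1 and 6 in replicate 2. In the bithorax complex 6 of 8 sites were present in both, and 5 of those ranked higher in replicate 1. A site that entered through the list of 1 replicate is high there by that choice, so these counts describe the sites and do not test the replicates. Among the conservative sites alone, the median standing was the top 0.612% in replicate 1 and 0.681% in replicate 2 for the 5 Antennapedia sites. It was the top 1.40% for the 3 bithorax sites with a ranked peak in replicate 1, and the top 4.11% in replicate 2 for all 4.

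**Figure D3:**
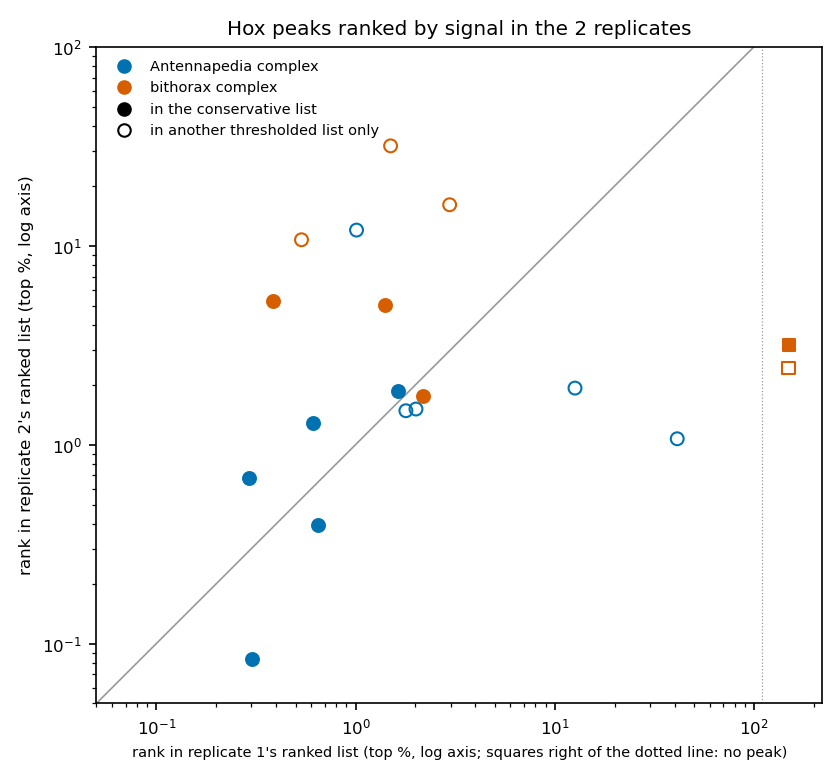
Standing of the 18 Hox sites in the ranked list of replicate 1 (horizontal axis, top percent, log scale) and of replicate 2 (vertical axis, top percent, log scale), 1 point per site. The pb promoter is at 0.302% and 0.0838%, several bithorax sites stand higher in replicate 1, and squares mark the 2 Ubx sites without a ranked peak in replicate 1.

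In the ranked lists, where most peaks are weak, the Hox windows together were as full as the arms at large. The main ranked list held 455 peaks in them, 109.0 per 100 kb, beside 101.9 over all arms. By gene there were 37 at lab, 50 at pb, 21 at Dfd, 40 at Scr, 102 at Antp, 121 at Ubx, 24 at abd-A and 60 at Abd-B. For its length abd-A held the fewest in this list, at 73.1 per 100 kb (interval 46.8 to 109), with 34.5% of its window inside the stretch described above. In replicate 2 abd-A stood at 88.3 per 100 kb, above Scr at 81.4 and Dfd at 82.6. Ubx and lab held the most in the main list, at 138 (interval 114 to 165) and 136 (95.9 to 188). The Ubx interval lay above the value of all arms in both ranked lists of the series, but not in either replicate's list. Per 100 kb the Antennapedia windows held 103.4 and the bithorax windows 116.7, with overlapping intervals. Of the 455 peaks 9 had a score of 830 or more, beside 1.6% of all peaks of that list. In the other ranked list of the series it was 15 of 468 (2.06% of all peaks), in replicate 1 it was 11 of 344 (1.84%) and in replicate 2 it was 6 of 405 (1.39%). The typical Hox peak was near the middle of its list, with a median standing of 46.6% in the main list, 49.6% in replicate 1 and 46.6% in replicate 2. Introns held 69.7% of the Hox peaks and 36.3% of all ranked peaks; the share of sequence that is intron was not compared.

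At the 19 annotated Hox TSSs, 15 had a ranked summit within 500 bp in the main list, 16 in the other ranked list of the series, 14 in replicate 1 and 14 in replicate 2. Over all TSSs of protein-coding genes the shares were 77.5%, 78.9%, 69.1% and 77.4%. In replicate 1 and in replicate 2 alike, 7 of the 9 Antennapedia TSSs and 7 of the 10 bithorax TSSs had one, the latter lacking all 3 of abd-A. After the pb and Dfd promoters, which were described above, the next in replicate 1 were the 2 lab TSSs, at 4.06% for the 5′ and 4.68% for the 3′ one. In replicate 2 they stood at 5.09% and 40.0022%, so only the 5′ lab TSS was high in both.

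The Antp TSSs in the middle of the gene stood lower. The one at 6958370 was in the top 17.9% of replicate 1 and 19.5% of replicate 2, and the one at 6932840 in the top 31.9% and 17.7%. The second Scr TSS, at 6848505, had no ranked peak in either replicate. At Abd-B the TSS at 16934242 stood highest, in the top 6.83% and 6.46%, and the TSS at 16963641 followed in replicate 1, at 21.1% and 12.4%. The TSS at 16960281 was at 30.02% and 11.6%, and the TSS at 16944273 at 60.8% and 13.04%. The 2 Abd-B TSSs nearest the 5′ end, at 16968574 and 16972236, stood near or below the middle of both lists, at 87.1% and 51.6% and at 53.4% and 43.4%. No Hox TSS outside pb and Dfd was in the top 2% of either replicate.

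**Figure D4:**
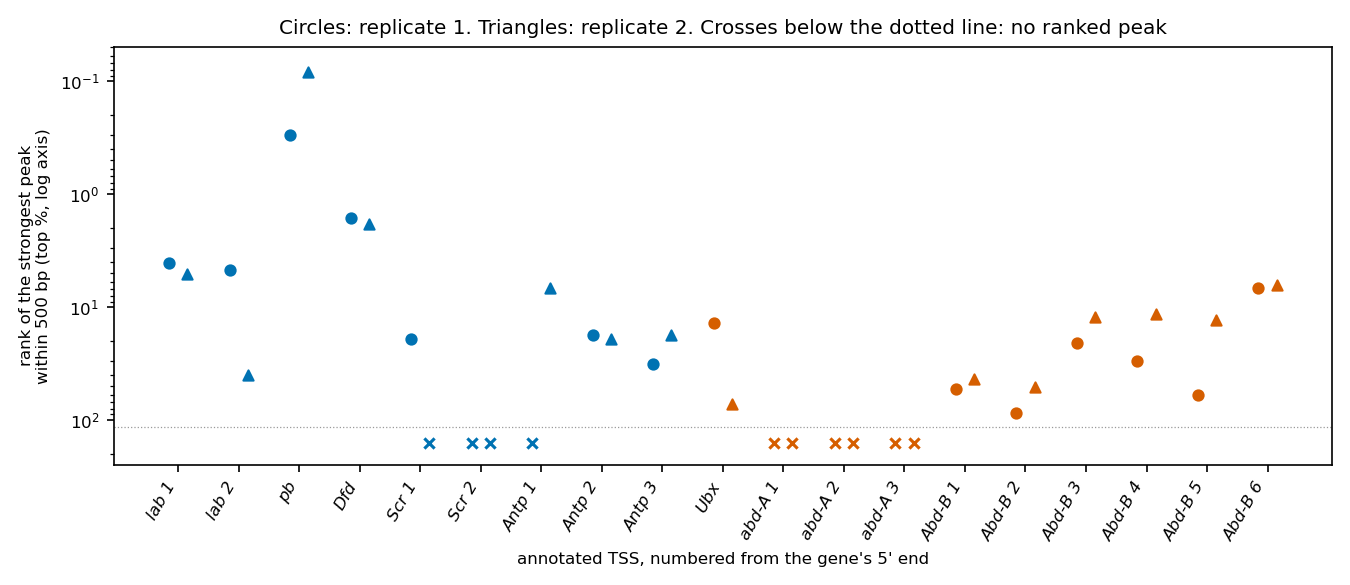
Standing of the best ranked peak within 500 bp of each of the 19 annotated Hox TSSs (top percent, log scale) in each replicate's ranked list. Crosses mark TSSs without a ranked peak, which include all 3 abd-A TSSs in both replicates, and the pb and Dfd TSSs stand in the top 2% of both lists.

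The strings named above, each bound by a known factor, were searched within 100 bp of the 9 conservative summits, on both strands. GCCAT, the Pho core, occurred at 6 of 9 (66.7%), beside 27.5% of all conservative peaks and 30.8% of TSS windows of the same length. It was at both pb peaks, at Dfd, at the 5′ Ubx site and at both Abd-B sites, and at neither Antp site. GAGAG occurred at 4 of 9 (44.4%; 25.7% of all peaks and 24.97% of TSS windows), at Dfd, at both Antp peaks and at the second pb peak. TAATTA, a homeodomain string, occurred at 1 of 9 (15.1% of all peaks), the stronger Antp site. The shorter TAAT, which TAATTA contains, occurred at 7 of 9 (87.7% of all peaks). TATAAA, which can overlap TAATTA, was at 3 of 9 (32.3%), and CGATA and CACGTG at none (28.9% and 2.25%). With 9 peaks these shares are descriptions, and a match is not evidence of a bound site. The GC content of these windows ran from 28.4% at Antp to 57.7% at pb. Its median was 42.3%, beside 36.8% over all conservative peaks and 42.3% over the TSS windows.

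The Antennapedia complex also holds homeobox genes that no longer act as Hox genes. bcd, the anterior determinant laid down in the egg, had 3 conservative peaks within 5 kb of its body, 1 of them 83 bp upstream of its TSS with a signal of 113. The other 2, with signals of 77.1 and 131, were nearer to the TSS of the neighbouring gene Ama. zen and ftz, which act in the dorsal membranes and in segmentation, had none, and the 2 peaks in the window of zen2 were the pb promoter peaks. ftz had 1 peak in the replicate 1 list, in an exon, with a signal of 34.3. Between the bithorax Hox windows, and named after their values were seen, 2 conservative peaks lay in introns of the noncoding gene bxd, upstream of Ubx, with signals of 69.1 and 104. Of the other thresholded lists, only that of replicate 1 held these bxd peaks. Another conservative peak lay in an intron of iab8, with a signal of 54.3, and was also in the less strict list. Its summit lies within the annotated gene MSAmiP as well. Counted over the whole spans, the Antennapedia complex held 8 conservative peaks in 347.8 kb and the bithorax complex 7 in 325.6 kb.

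The genes whose strongest TSS peak stood most like that of a Hox gene in the 2 replicates were found by the distance between their pairs of ranks, in percent of the list, over 1462 genes. For pb they were CG10413, at a distance of 0.0161, and CG12301 and mrn, which share 1 peak, at 0.0268. For Dfd they were 14-3-3zeta and RpLP0-like, which share a peak at a distance of 0.0959, and SLIRP1, at 0.102. The likeness rests on 2 samples.

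Regulators, partners and targets of the Hox genes were counted in the same way. Of the Hox cofactors, which bind or act with Hox proteins, 2 of 6 had a conservative peak in the window (hth, signal 163, and disco-r, 159). Of the gap, pair-rule and other early regulators of Hox expression it was 3 of 12 (slp1, 171, cad, 131, and odd, 123), with 0 at a TSS. Of the Polycomb group, which keeps Hox genes silent, it was 11 of 19, led by ph-p (1403), Caf1-55 (916), phol (599) and Psc (546), with 4 at a TSS. Of the trithorax group, which keeps them active, it was 10 of 15, led by ash1 (1272), Trl (559), brm (506) and osa (332), with 5 at a TSS. The signals named are the highest anywhere in the window, which can hold other genes. Of these leading genes, Caf1-55, phol, Psc, ash1 and osa had no conservative peak at a TSS of their own. The highest signal at a TSS was 483 for ph-p, 185 for Trl and 506 for brm.

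These counts stand beside the 29.1% of all protein-coding genes with a peak in the window and the 10.5% with one at a TSS. Of the genes downstream of Hox proteins, 6 of 15 had a peak in the window and 3 at a TSS. Among them Dll, the limb gene that bithorax proteins repress in the abdomen, had the strongest peak of the whole conservative list, at its TSS with a signal of 3244. Of 70 other homeobox genes 20 had a peak in the window and 8 at a TSS, led by Dll, zfh1 (385), zen2 through the pb peak (330) and tin (274). The lists differ in gene length and share members such as Dll, tin, cad and hth, and nothing was tested over them.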

How the data were processed

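CG8765-eGFP was profiled by ChIP-seq in 2 biological replicates of whole embryos, with fragments of 200 to 800 bp per the labels. The 8 peak lists, on dm6 per the labels, are narrowPeak-like tables whose contents matched the checksums in the deposited text. Each signal is the authors' value in the deposited lists, and its scaling differs between the series and each replicate. Each score is a whole number up to 1000 in the deposited lists, set by the authors from the irreproducible discovery rate. No label or header names the aligner or the peak caller, and the depth of sequencing is unknown. The control experiment is not used here, nor are 20 columns of the series' ranked lists that no label maps to a sample.

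Peaks on X, Y, 4 and both arms of chromosomes 2 and 3 were placed by summit, with Ensembl annotation 115 of BDGP6.54. Summits up to 500 bp from any TSS counted as TSS peaks, and the others as exon, intron or intergenic. Peaks of different lists were joined by an overlap of at least 1 bp. Ranks are by signal within a list. The main ranked list of the series is the one that holds all 2132 conservative peaks with a score of 830 or more, and the other holds 1963. Intervals are exact 95% Poisson intervals and cover counting error only. The counting was tested on simulated peaks. The Hox genes are all named, other genes by lists of regulators, cofactors and homeobox genes, by up to 4 members of highest signal. The genes and lists were chosen with earlier results of these data known. Of the listed genes, calypso and conn matched no annotated symbol. The software was pandas 2.3.3, SciPy 1.17.1, NumPy 2.4.6 and matplotlib 3.10.9 under Python 3.11.15. The alternatives were other lists, windows, overlaps and thresholds and each replicate alone.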

Additional observations from a re-analysis of the deposited data

How the results depend on the processing

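Counts that changed by over 1.5 times, and other values that changed by over the SD between replicates, were taken as moved: 18 values moved and 40 did not. In the less strict list there were 15 Hox peaks, 10 of them in the Antennapedia complex, and their median standing was the top 67.5%. With conservative peaks at or above the median signal only, 5 peaks at 3 genes remained, with 1 gene at a TSS and 1 bithorax peak. Without flanks the Antennapedia complex held 3 peaks, since the pb and Dfd upstream peaks lie outside the gene bodies, and windows of 10 kb added none. With a TSS window of 200 bp 1 gene had a TSS peak. Over whole spans, an alternative chosen after seeing the data, the complexes held 8 and 7 peaks. Each replicate alone gave 6 to 11 Hox peaks, 2 to 5 genes with a peak, 1 to 2 genes with a TSS peak, 6 to 7 Antennapedia and 0 to 4 bithorax peaks, and a median standing of 35.9% to 61.2%, the lower count or weaker standing always without replicate 1. Ranked peaks per 100 kb were 81.5 to 95.5 in the Antennapedia and 83.7 to 99.1 in the bithorax windows. Over all arms they were likewise lower than in the main ranked list, at 77.4 in replicate 1 and 91.1 in replicate 2, beside 101.9. No paired analysis was possible because the labels give only 1 group. The cause of these differences was not tested. The unknown depth and the stretches without ranked peaks limit what the absence of a peak shows, most of all at the abd-A promoters.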
